A study of Drosophila melanogaster with 30 samples.

Results

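Antisense RNA genes are annotated noncoding genes whose transcripts lie on the strand opposite to another gene, and their symbols in the deposited tables begin with asRNA. A gene was included where its mean reached 20 normalized counts in at least 1 of the 9 conditions of the series, and 111 of the 486 antisense RNA genes, among 17807 genes in all, did so. The genes were thus chosen by their measured level, so the fact that they were detected is not a result, and a gene that reached the level in a single condition had to differ between that condition and the others. Just inside the limit were *asRNA:CR45798*, at a highest group mean of 20.1 normalized counts, and *asRNA:CR44896*, at 20.2. Just outside it were *asRNA:CR45162*, at 19.7, and *asRNA:CR45682*, at 19.6.

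The study asked which transcripts depend on Ovo, a zinc-finger transcription factor of the *Drosophila* female germline, and sequenced RNA from 30 libraries of fly ovary cells and ovarian cell lines. For the sorted cells, ovaries of yeast-fed females of the strain w[*]; TI{TI}vas[AID:EGFP] were dissociated and separated by GFP fluorescence into vas-GFP+ cells, labelled germline (3 libraries), and vas-GFP- cells, labelled somatic (3 libraries). A further 3 groups were untreated cell lines at 4 libraries each: fGS/OSS, a line labelled as a mix of female germline stem cells and ovarian somatic sheet cells and as wild type, Δl(3)mbt OSCs, labelled as an *l(3)mbt* knockout, and wild-type OSCs, the ovarian somatic cell line. The last 4 groups, at 3 libraries each, were Δl(3)mbt OSCs and wild-type OSCs collected 48 h after nucleofection with ovo-FLAG, which carries the ovo-B form of Ovo under the act5C promoter, or with an empty vector. Ribosomal RNA was depleted from total RNA of the sorted cells and untreated lines, and poly(A) RNA was used for the nucleofected cells, all with strand-specific libraries. The sources call the libraries distinct samples without saying that they came from separate flies or cultures, so the p-values measure the spread between these libraries, which may be technical.

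Antisense transcripts arise from promoters inside, beside or at the far end of the gene they overlap. They can pair with the sense RNA into double-stranded RNA, which Dicer-2 cuts into small interfering RNAs, and transcription from opposite strands can interfere where polymerases meet. Many antisense RNAs of the fly are known from sequencing alone, and no function was assumed for any gene described here.

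Total counts were 1.63 to 23.1 M per library, with the shallowest in the third library of Δl(3)mbt OSCs with empty vector. The summed level of 8 germ cell markers was 21595 to 23311 normalized counts in vas-GFP+ libraries, against 387 to 453 in vas-GFP- libraries, and the 6 ovarian somatic markers gave 2110 to 3316 against 17118 to 18690. *ovo* itself averaged 649 ± 45.0 normalized counts in OSCs with ovo-FLAG and 9.50 ± 2.11 with empty vector (SD, n = 3 each), and 2398 ± 146 and 952 ± 73.7 in Δl(3)mbt OSCs. In bulk RNA, fewer cells of a type and less RNA per cell cannot be told apart.

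All 111 genes shared exonic bases with a gene on the opposite strand in the Ensembl annotation of the dm6 assembly, and 110 of these sense partners were protein-coding. The shared stretch reached the partner's coding sequence for 103 of the genes. The antisense gene lay inside the sense gene in 42 pairs, the 5′ ends overlapped in 29, the 3′ ends overlapped in 21, and the antisense gene spanned the whole sense gene in 19. Among the 375 antisense RNA genes below the level these arrangements numbered 202, 119, 34 and 20. The 111 genes had a median of 1287 exonic bases (382 to 7622), against 807 for the others, and 40 had a single exon, against 206. The expected count rises with exonic length, so the level used for inclusion favours long genes. By chromosome arm, 31 lay on 3R, 21 on X, 21 on 3L, 20 on 2R, 13 on 2L and 5 on chromosome 4. For 12 genes another gene on the same strand covered part of the span, and for 27 one ended within 1000 bases upstream, so that counts at these ends can be shared with or run on from a neighbour.

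The highest mean of a gene fell most often in vas-GFP+ cells (35 genes), then in fGS/OSS (20) and Δl(3)mbt OSCs (20), wild-type OSCs (13), vas-GFP- cells (11), Δl(3)mbt OSCs with ovo-FLAG (6), OSCs with ovo-FLAG (4) and Δl(3)mbt OSCs with empty vector (2). No gene had its highest mean of normalized counts in OSCs with empty vector. Of the 111 genes, 38 reached 20 normalized counts in 1 condition alone and 11 did so in all 9. vas-GFP+ cells held 66 genes at the level, the largest number of any condition, and 18 of these reached it nowhere else. Sorted cells, untreated lines and the nucleofected cells of each line were scaled separately, so these tallies depend on that scaling. In normalized counts *asRNA:CR44690* was highest in fGS/OSS. In CPM, counts scaled to the library total, it had 20.6 there and 42.3 in vas-GFP+ cells. *asRNA:CR46029*, also highest in fGS/OSS in normalized counts, had 13.8 CPM there and 22.1 in OSCs with empty vector. Some vas-GFP+ means rested mainly on 1 library, as with reads of 0, 80 and 5 for *asRNA:CR46195*. How many genes either limit affects was not counted. The genes together took 0.0775% of normalized counts in vas-GFP+ cells and 0.0401% in vas-GFP- cells, and 0.0328% to 0.0515% in the cell lines. The differences in these shares between conditions were not tested.

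**Figure D1:**
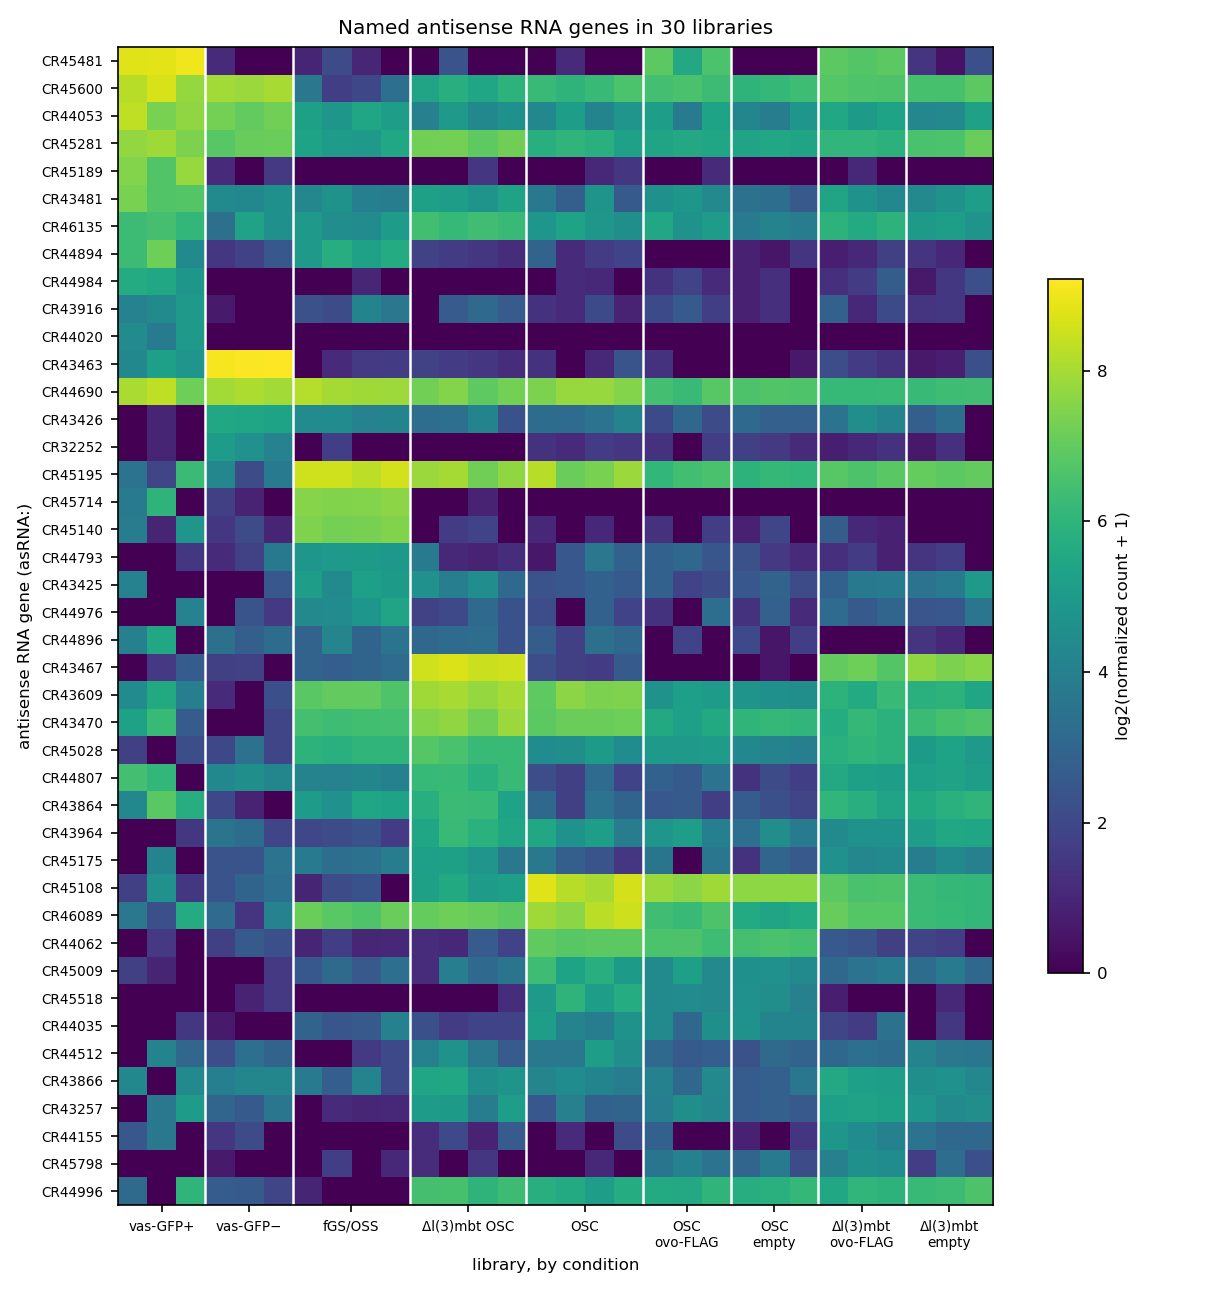
Levels of the named antisense RNA genes (rows) in the 30 libraries (columns, by condition), as log2(normalized count + 1) in colour. *asRNA:CR45481* is bright in the vas-GFP+ libraries and in both ovo-FLAG groups, *asRNA:CR45714* in fGS/OSS, and *asRNA:CR43467* in the 3 groups of Δl(3)mbt OSCs.

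In counts, the highest group mean belonged to *asRNA:CR43463* (chromosome 2L, 14359285 to 14361303, minus strand), which lies inside *Pgant35A*, an O-linked glycosylation enzyme gene, and overlaps 1896 of its coding bases. It had 18.5, 36.3 and 27.1 normalized counts in vas-GFP+ cells and 544, 571 and 597 in vas-GFP- cells, and no cell line library exceeded 4.32. Per kilobase of exon, *asRNA:CR45195* (chromosome 3R, 10876834 to 10877783, minus strand) stood first at 410 normalized counts per kb in fGS/OSS. *CR43463* followed at 283 in vas-GFP- cells, and *CR45481* ranked 7 at 170 in vas-GFP+ cells. Sorted cells and cell lines were scaled separately, so this order depends on that scaling. As counts scaled to the library total (CPM), these means were 29.6, 73.2 and 82.5, over 0.889, 2.019 and 2.79 kb of exon. In CPM per kb *CR43463* stood above *CR45195*. *CR45195* lies inside *Sodh-2*, a sorbitol dehydrogenase gene, and reached the level in 8 conditions. *asRNA:CR44690* (chromosome X, 2175817 to 2180816, minus strand), which spans the cytochrome P450 gene *Cyp4d2*, was among the broad ones: it reached the level in all 9 conditions, with means of 72.9 to 254 normalized counts, and passed the test in none of the 5 comparisons. *asRNA:CR43609* (chromosome 2L, 21952 to 24237, plus strand), inside the ionotropic receptor gene *Ir21a*, reached the level in 8 conditions with means of up to 243, in Δl(3)mbt OSCs, and also passed in none.

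The comparison of sorted cells asked which transcripts mark germline or soma. Of 105 antisense RNA genes tested, 9 were higher and 4 lower in vas-GFP+ cells (log2FC beyond 1, adjusted p under 0.01, limma with Benjamini-Hochberg adjustment over all genes tested). That is 12.4%, against 15% of all 10481 genes called in either direction, 7.04% higher and 7.99% lower, so the genes were called about as often as genes at large. At the level in vas-GFP+ cells alone of the pair were 38 genes, and 11 in vas-GFP- cells alone. The median log2FC was 0.24 over the antisense genes and -0.07 over all genes.

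*asRNA:CR45481* (chromosome X, 3968933 to 3972054, plus strand) overlaps *CG6414*, an uncharacterised gene, at the 5′ ends with 1936 exonic bases. It had 441, 463 and 521 normalized counts in the 3 vas-GFP+ libraries, against 1.19, 0 and 0 in vas-GFP- libraries. With 2 reads behind the vas-GFP- level, the ratio was 918-fold (95% counting interval 254 to 7588), and the test gave log2FC = 8.52, SE 0.57, adjusted p = 1.94e-05. Its sense partner *CG6414* had no read in either sorted population. *asRNA:CR43481* (chromosome 3L, 9378160 to 9381119, plus strand) overlaps the small heat shock gene *Hsp67Ba* at the 5′ ends. It had 165, 105 and 106 normalized counts in vas-GFP+ cells and 20.2, 18.7 and 23.6 in vas-GFP- cells (log2FC = 2.51, SE 0.39, adjusted p = 0.00175), with no overlap between the groups. *asRNA:CR43864* (chromosome X, 1902028 to 1903733, plus strand), which spans the uncharacterised gene *CG32801*, had 18.5, 115 and 52.3 against 2.97, 0.851 and 0 (log2FC = 4.67, SE 0.96, adjusted p = 0.00767). *asRNA:CR44894* (chromosome X, 10114340 to 10208574, minus strand) had 78.8, 145 and 19.8 against 1.78, 2.55 and 4.71 (log2FC = 4.02, SE 0.88, adjusted p = 0.00982). The vas-GFP+ libraries of *CR43864* and *CR44894* spread widely while still lying above every vas-GFP- library. For *CR43864* this separation was a condition of naming.

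A further 4 genes reached the level in vas-GFP+ cells alone, so that their contrast with vas-GFP- cells is a description without a p-value. *asRNA:CR45189* (chromosome 3R, 30781178 to 30783645, minus strand) lies inside *zfh1*, a zinc-finger homeodomain factor gene, and had 182, 103 and 224 normalized counts in vas-GFP+ cells against 1.19, 0 and 1.88 in vas-GFP- cells. No other library held more than 1.77 normalized counts of it. *asRNA:CR44984* (chromosome 2L, 4074279 to 4075952, minus strand), inside the cell adhesion gene *ed*, had 49.8, 43.7 and 28.9 in vas-GFP+ cells and no read in vas-GFP- cells, at least 53.3-fold higher against a limit of 3 reads over the group. *asRNA:CR44020* (chromosome 3R, 8934279 to 8935287, minus strand) overlaps 162 exonic bases at the 5′ end of *osk*, the organiser of the germ plasm in the oocyte. It had 20.9, 13.0 and 30.7 normalized counts in vas-GFP+ cells, at least 28.1-fold higher than in vas-GFP- cells, and no read in any other library of the series. *asRNA:CR43916* (chromosome 3L, 3940519 to 3941301, plus strand), at the 3′ end of the uncharacterised gene *CG10863*, had 16.2, 20.5 and 30.7 against 0.595, 0 and 0 in vas-GFP- cells, and the ratio was 83.3-fold (95% counting interval 14.3 to 3351). *asRNA:CR44724*, the ninth called higher, also reached the level in vas-GFP+ cells alone. All of these were set apart by vas-GFP- libraries at or near 0.

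Of the 4 called lower in vas-GFP+ cells, *CR43463* had the most counts (log2FC = -4.39, SE 0.29, adjusted p = 2.36e-05). *asRNA:CR43426* (chromosome 3L, 22850111 to 22854434, plus strand), which spans the uncharacterised gene *CG32462*, had 0, 0.930 and 0 normalized counts in vas-GFP+ cells and 44.6, 41.7 and 39.6 in vas-GFP- cells, 106-fold (95% counting interval 18.7 to 4197) lower. *asRNA:CR32252* (chromosome 3L, 4221704 to 4222734, minus strand), inside *CG43367*, had 0, 0.930 and 0 against 32.7, 24.7 and 16.0, 64.3-fold (95% counting interval 11.3 to 2563) lower. These both reached the level in vas-GFP- cells alone, so no p is given. *asRNA:CR44176*, with no read in vas-GFP+ cells, was at least 12.7-fold lower. The yolk and eggshell markers, which follicle cells express, summed to 3425 to 4507 normalized counts in vas-GFP+ cells against 128403 to 138418 in vas-GFP- cells, and their part in these calls was not tested.

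The sorted comparison rested on few libraries. Without vas-GFP- replicate 1, 2 or 3 the counts called higher were 2, 3 and 3 and the count called lower was 1 each time, without vas-GFP+ replicate 3 the count lower was 8, and DESeq2 on the recovered reads gave 17 higher and 4 lower, with the median log2FC of all genes at 0.08. The call of *CR43864* was lost without any single vas-GFP- library and without vas-GFP+ replicate 2 or 3 (adjusted p of 0.0149 to 0.0363 over these 5), and that of *CR43481* without vas-GFP- replicate 1 or 2 (0.0106 and 0.0102). Those of *CR45481* and *CR43463* were kept under every alternative tried.

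**Figure D2:**
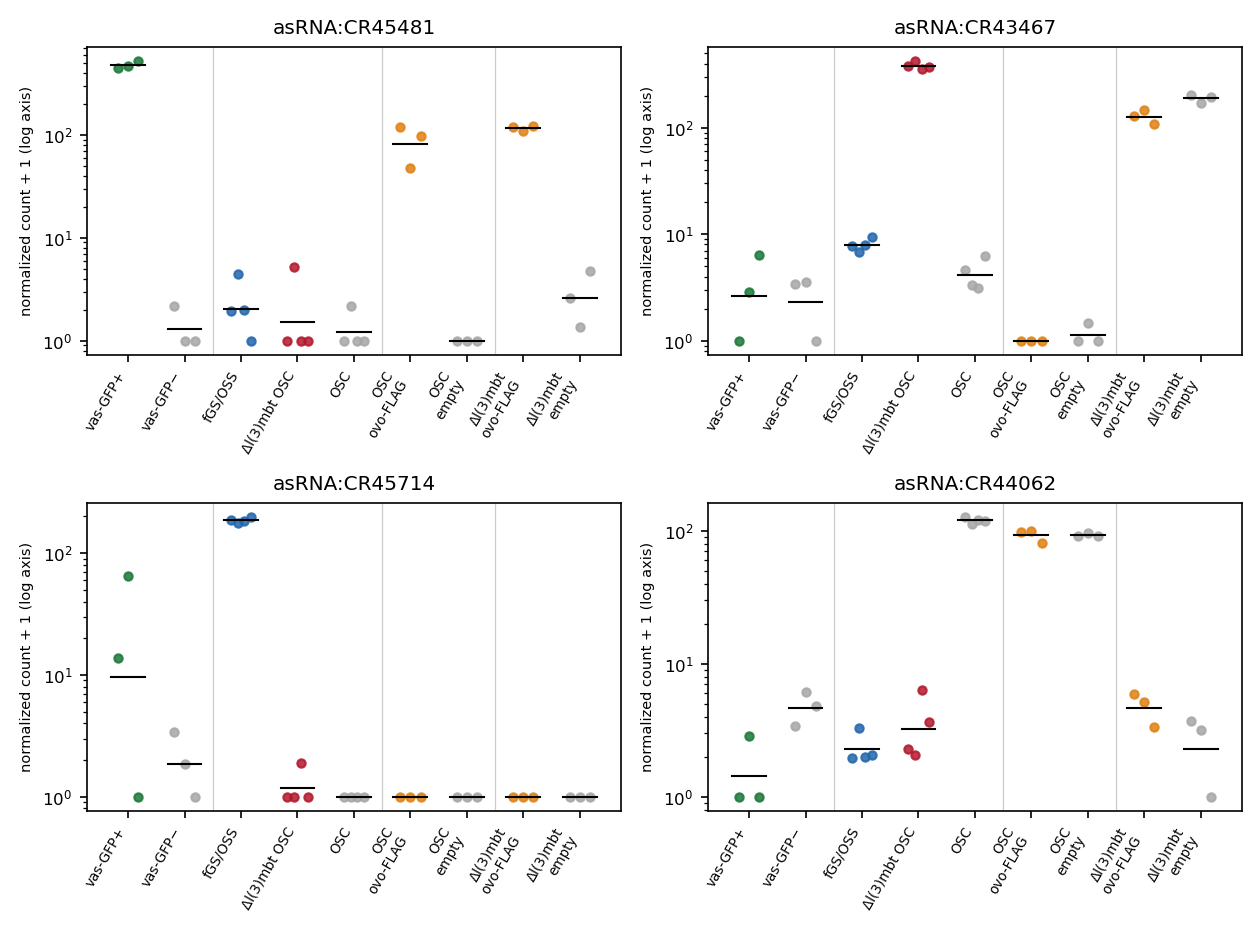
Normalized counts + 1 (log axis) of *asRNA:CR45481*, *asRNA:CR43467*, *asRNA:CR45714* and *asRNA:CR44062* in every library of the 9 conditions; each point is a library and each bar a geometric mean. *asRNA:CR45481* lies at 46.7 to 521 normalized counts in vas-GFP+ cells and both ovo-FLAG groups, and at 4.16 or less in every other library.

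The comparison of fGS/OSS with wild-type OSCs set side by side 2 ovarian lines. In fGS/OSS 27 of 97 antisense genes were higher and 23 lower (log2FC beyond 0.6, adjusted p under 0.05), 51.5%, against 36.3% of all genes called, 18% higher and 18.3% lower. For 13 genes the level was reached in fGS/OSS alone of the pair and for 17 in OSCs alone, so part of this share follows from how the genes were chosen. Quantile normalization turned the split to 32 higher and 17 lower. The long noncoding RNA genes that met the same limit were called more often still, at 52 higher and 67 lower of 189 tested.

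*asRNA:CR45714* (chromosome X, 18480072 to 18481132, plus strand) lies inside *Hayan*, a serine protease gene of the melanization cascade. It had 186, 177, 184 and 197 normalized counts in the 4 fGS/OSS libraries and no read in any OSC library, at least 304-fold higher (adjusted p = 3.21e-10). Outside fGS/OSS it was seen in the sorted cells, at 12.7, 63.2 and 0 in vas-GFP+ cells against 2.38, 0.851 and 0 in vas-GFP- cells, where the groups overlapped and the test did not pass (adjusted p = 0.273). *asRNA:CR45140* (chromosome 2R, 12867609 to 12869783, plus strand), which overlaps the 5′ end of *CG17574*, reached the level in fGS/OSS alone. It had 174, 156, 160.2 and 179 normalized counts there, against 1.02, 0, 1.06 and 0 in OSCs, and the ratio was 274-fold (95% counting interval 93.5 to 1334). *CR44894* had 29.7, 52.9, 37.6 and 50.2 in fGS/OSS against 6.66, 1.18, 2.11 and 2.59 in OSCs (log2FC = 3.52, SE 0.40, adjusted p = 1.15e-05). *asRNA:CR44793* (chromosome 2L, 5525738 to 5526943, minus strand) overlaps the 5′ end of *Cap-D3*, a condensin II subunit gene, and had 27.8, 31.1, 31.6 and 29.3 against 0.512, 4.72, 11.6 and 6.05 (log2FC = 2.55, SE 0.53). *Cap-D3* was lower in fGS/OSS, at 303 ± 1.87 normalized counts against 664 ± 35.9 in OSCs (log2FC = -1.13, SE 0.07, adjusted p = 5.48e-08). *asRNA:CR44976* (chromosome 2L, 1708452 to 1709244, plus strand), inside *CG17660*, had 19.1, 20.7, 27.7 and 40.8 against 3.59, 0, 6.33 and 2.59 (log2FC = 3.02, SE 0.55). *asRNA:CR43425* (chromosome 4, 867824 to 871426, plus strand), inside *unc-13*, which encodes a priming factor for synaptic vesicles, had 35.4, 19.6, 35.6 and 31.4 against 4.10, 4.72, 6.33 and 5.18 (log2FC = 2.35, SE 0.30). The last 3 reached the level in fGS/OSS alone and are given without a p.

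Lower in fGS/OSS was *asRNA:CR45108* (chromosome 2R, 7783334 to 7785585, plus strand), which overlaps the 5′ end of *cn*, the kynurenine 3-monooxygenase gene of eye pigment synthesis. It had 0.958, 3.45, 3.96 and 0 normalized counts in fGS/OSS against 436, 297, 258 and 392 in OSCs (log2FC = -7.05, SE 0.46, adjusted p = 8.99e-08). *asRNA:CR44062* (chromosome 3R, 22550032 to 22552687, minus strand) overlaps the 5′ end of *bond*, a very long chain fatty acid elongase gene, and had 0.958, 2.30, 0.989 and 1.05 against 126, 112, 119 and 118 (log2FC = -5.73, SE 0.28, adjusted p = 5.80e-09). *asRNA:CR45518* (chromosome X, 5516993 to 5517500, minus strand), inside *CG12730*, had no read in fGS/OSS and 30.7, 62.5, 34.8 and 51.8 normalized counts in OSCs, at least 58.2-fold lower (adjusted p = 8.70e-08). *asRNA:CR44996* (chromosome 2L, 7994798 to 7996494, plus strand), inside *CG7227*, had 0.958, 0, 0 and 0 in fGS/OSS against 55.3, 48.3, 34.8 and 51.8 in OSCs, 191-fold (95% counting interval 34.0 to 7592) lower (adjusted p = 1.31e-07). *asRNA:CR45600* (chromosome 3R, 15136985 to 15140121, minus strand), which spans *CG3984*, had 11.5, 2.30, 2.97 and 9.42 against 73.2, 63.7, 72.8 and 95.9 (log2FC = -3.57, SE 0.42, adjusted p = 1.45e-05). *asRNA:CR44512* (chromosome X, 19667018 to 19667746, minus strand), which overlaps the 5′ end of the glucose-6-phosphate dehydrogenase gene *Zw*, had 0, 0, 1.98 and 3.14 against 11.8, 11.8, 34.8 and 22.5 and reached the level in OSCs alone. In all 6, no fGS/OSS library came within the range of the OSC libraries, which was a condition for naming them here. Muscle marker genes summed to 558 to 621 normalized counts in fGS/OSS against 5288 to 7096 in OSCs, and germ cell markers to 3015 to 3165 against 195 to 282. Whether these contents of the lines bear on the antisense calls was not tested.

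The comparison of Δl(3)mbt OSCs with OSCs asked what the loss of the chromatin protein L(3)mbt, known to keep germline genes silent in somatic cells, changes. The RNA of *l(3)mbt* itself was not lower in the libraries labelled knockout, at 5724 ± 215 normalized counts against 5770 ± 774 in OSCs (SD, n = 4 each). The sources used here do not say which part of the gene was deleted, so a count over the whole gene is no check of the label, and the groups are named by it. *ovo* averaged 1842 ± 195 normalized counts in these libraries and 19.3 ± 1.29 in OSCs, and *vas* 1153 ± 101 and 12.8 ± 3.53. Both comparisons of untreated lines use the same 4 OSC libraries.

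Of 96 antisense genes tested, 24 were higher and 12 lower in Δl(3)mbt OSCs (log2FC beyond 0.6, adjusted p under 0.05), 37.5%, against 19.2% of all genes called, 11.3% higher and 7.91% lower. At the level in Δl(3)mbt OSCs alone of the pair were 12 genes, and 7 in OSCs alone, so this share too is a description. Long noncoding RNA genes of the same level gave 35 higher and 23 lower of 181 tested.

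*asRNA:CR43467* (chromosome 2R, 10139262 to 10142074, minus strand) spans *Or46a*, an odorant receptor gene, and had 378, 422, 355 and 374 normalized counts in the 4 Δl(3)mbt libraries, against 3.59, 2.36, 2.11 and 5.18 in OSCs (log2FC = 6.53, SE 0.25, adjusted p = 3.58e-10). *Or46a* itself stayed low, at 6.90 ± 2.55 against 2.61 ± 1.97 (log2FC = 1.32, SE 0.58, adjusted p = 0.0897). In the nucleofected cells *CR43467* was again high only with the Δl(3)mbt label: it had 127, 145 and 108 normalized counts with ovo-FLAG and 204, 169 and 193 with empty vector in Δl(3)mbt OSCs, while OSCs held 0, 0 and 0 with ovo-FLAG and 0, 0.475 and 0 with empty vector. *asRNA:CR44807* (chromosome 2R, 23812185 to 23814771, plus strand), inside *CG4797*, the sugar transporter gene now named *pippin*, had 72.3, 74.9, 57.4 and 72.8 against 3.59, 2.36, 8.45 and 2.59 (log2FC = 3.87, SE 0.35, adjusted p = 1.90e-06). *CR43864* had 54.5, 78.0, 73.3 and 39.7 against 7.68, 2.36, 10.6 and 6.91 (log2FC = 3.07, SE 0.39, adjusted p = 4.08e-05), while its partner *CG32801* was lower (log2FC = -1.76, SE 0.34, adjusted p = 0.00128). *asRNA:CR45175* (chromosome 3L, 17841671 to 17842599, plus strand), inside *CG5567*, had 35.5, 36.4, 27.4 and 11.9 against 11.8, 5.90, 4.22 and 1.73 (log2FC = 2.16, SE 0.49, adjusted p = 0.00398). *asRNA:CR45028* (chromosome 3R, 18668572 to 18669482, minus strand), at the 3′ end of *CG31229*, had 110.4, 94.7, 73.3 and 75.4 against 21.5, 22.4, 31.7 and 21.6 (log2FC = 1.82, SE 0.22, adjusted p = 3.15e-05). *CR43481* had 36.8, 34.3, 26.5 and 38.4 against 12.3, 5.90, 26.4 and 5.18 (log2FC = 1.64, SE 0.43, adjusted p = 0.00888). Each of these lay above all 4 OSC libraries in all 4 Δl(3)mbt libraries, which was a condition for naming them here. The gap was narrowest in *CR43481*, where the lowest Δl(3)mbt library stood at 26.5 and the highest OSC library at 26.4.

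*asRNA:CR45281* (chromosome 2R, 9559255 to 9565190, minus strand) spans the alkaline phosphatase gene *Alp6* and moved against it. It had 153, 156, 122 and 148 normalized counts in Δl(3)mbt OSCs and 54.3, 64.9, 57.0 and 38.0 in OSCs (log2FC = 1.44, SE 0.19, adjusted p = 5.54e-05), while *Alp6* fell to 2.75 ± 2.43, against 47.5 ± 28.5 in OSCs (log2FC = -3.69, SE 0.52, adjusted p = 1.04e-04). *asRNA:CR46089* (chromosome 3R, 23052916 to 23057984, plus strand), at the 3′ end of *CG17119*, the gene of the lysosomal cystine exporter now named *Ctns*, showed the opposite arrangement. It had 131, 147, 135 and 119 against 241, 195, 305 and 368 (log2FC = -1.02, SE 0.17, adjusted p = 5.15e-04), and *CG17119* was higher, at 81.4 ± 7.46 against 15.2 ± 6.97 (log2FC = 2.43, SE 0.29, adjusted p = 2.37e-05).

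Among the 12 lower, *CR44062* had 1.27, 1.04, 5.30 and 2.65 normalized counts in Δl(3)mbt OSCs against 126, 112, 119 and 118 in OSCs (log2FC = -5.22, SE 0.36, adjusted p = 1.19e-07). *CR45518* had 0, 0, 0 and 1.32 against the same OSC libraries (30.7, 62.5, 34.8 and 51.8), 153-fold (95% counting interval 27.1 to 6063) lower (adjusted p = 9.34e-07). *CR45108* had 36.8, 47.9, 32.7 and 35.7 against 436, 297, 258 and 392 (log2FC = -3.13, SE 0.19, adjusted p = 3.89e-08). All 3 lay below every OSC library, as their naming required, and their fGS/OSS values above were set against the same controls. *asRNA:CR45009* (chromosome X, 23007672 to 23009452, plus strand), at the 3′ end of the fucosyltransferase gene *FucTC*, had 1.27, 14.6, 7.95 and 10.6 against 82.0, 40.1, 53.8 and 32.0 (log2FC = -2.68, SE 0.54, adjusted p = 0.00231). *asRNA:CR44035* (chromosome 3R, 9810020 to 9813929, minus strand), at the 5′ end of *CG8534*, had 3.81, 2.08, 2.65 and 2.65 against 35.3, 16.5, 13.7 and 25.9 and reached the level in OSCs alone. The drop of *CR45600* was smaller, at 40.6, 54.1, 41.5 and 62.2 against 73.2, 63.7, 72.8 and 95.9 (log2FC = -0.62, SE 0.21, adjusted p = 0.0330), and its call was lost without Δl(3)mbt replicate 1 or 3 or OSC replicate 3 or 4, with adjusted p of 0.0554 to 0.0945. Neuronal markers summed to 2594 to 2957 normalized counts in Δl(3)mbt OSCs against 596 to 906 in OSCs and muscle markers to 107 to 139 against 5288 to 7096. Their part in these calls was not tested.

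The empty-vector libraries hold the same contrast of lines in other RNA, poly(A) rather than total, and were used here as another set of libraries. Of the 24 genes higher in total RNA, 23 had the same sign there and 21 had no overlap between groups in that direction, against 94.4% and 81.1% of all 1082 genes higher. Of the 12 lower, 10 had the same sign and 6 did not overlap, against 95.5% and 82.1% of all 759 genes lower. The exceptions in sign were *asRNA:CR45264*, at a log2 ratio of -0.15, *CR46089* at 0.60 and *CR45600* at 0.46. *CR43467* had a log2 ratio of 7.92 between the lines in poly(A) RNA, *CR44807* 3.59, *CR43864* 3.57, *CR44062* -5.40, *CR45518* -4.48 and *CR45108* -1.52. These ratios are of CPM, counts scaled to the library total, with 0.1 added.

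The comparison of ovo-FLAG with empty vector asked what Ovo alone changes in cells that lack it. In OSCs, 11 of 92 antisense genes tested were higher and 1 was lower (log2FC beyond 0.6, adjusted p under 0.1), 13.0%, against 9.95% of all genes called. In Δl(3)mbt OSCs, which hold *ovo* RNA already, 14 of 91 were higher and 3 lower, 18.7%, against 12%. Called genes were thus mostly higher with ovo-FLAG, as were those of the background, of which 8.78% were higher and 1.17% lower in OSCs and 9.43% and 2.53% in Δl(3)mbt OSCs. The split turned under quantile normalization, which gave 4 higher and 7 lower in OSCs and 5 higher and 22 lower in Δl(3)mbt OSCs. The numbers called in each direction, and whether the smaller changes below pass, therefore depend on the scaling.

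*CR45481* changed most in both lines. In OSCs it had 117, 46.7 and 96.2 normalized counts with ovo-FLAG and no read in the 3 empty-vector libraries, at least 149-fold higher (adjusted p = 1.78e-09). In Δl(3)mbt OSCs it had 119, 107 and 119.9 with ovo-FLAG against 1.63, 0.364 and 3.79 with empty vector (log2FC = 5.49, SE 0.39, adjusted p = 3.00e-09). The fitted change differed between the lines by -0.86 (SE 0.60, adjusted p = 0.436), a difference that did not pass. Untreated Δl(3)mbt OSCs, in which *ovo* stood at 1842 normalized counts, held 0, 4.16, 0 and 0 of *CR45481*, and fGS/OSS, in which *ovo* averaged 2941 ± 94.6 (SD, n = 4), held 0.958, 3.45, 0.989 and 0. High *ovo* RNA and high *CR45481* thus stood together in vas-GFP+ cells and with ovo-FLAG, and apart in untreated fGS/OSS and Δl(3)mbt OSCs. The sense partner *CG6414* stayed at a mean of 1.77 or less in all of these groups.

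With *CR45481*, 5 genes were called higher with ovo-FLAG in both lines, 45.5% of the 11 in OSCs and 35.7% of the 14 in Δl(3)mbt OSCs. The matching share over all genes is not given here, so these percentages describe the antisense genes alone. *asRNA:CR43257* (chromosome 2R, 24793807 to 24795772, plus strand), which spans *ETH*, the ecdysis triggering hormone gene, had 14.2, 23.3 and 18.3 normalized counts with ovo-FLAG against 5.49, 6.17 and 5.03 with empty vector in OSCs (log2FC = 1.56, SE 0.36, adjusted p = 0.00368). In Δl(3)mbt OSCs it had 35.7, 39.1 and 37.1 against 27.6, 20.4 and 22.7 (log2FC = 0.65, SE 0.23, adjusted p = 0.0420), a call lost without ovo-FLAG replicate 2 or 3 or empty-vector replicate 2, with adjusted p of 0.102 to 0.144. *CR45028* had 30.0, 31.1 and 32.1 against 18.8, 16.6 and 14.5 in OSCs (log2FC = 0.87, SE 0.25, adjusted p = 0.0171) and 56.6, 64.9 and 59.9 against 32.0, 40.0 and 30.3 in Δl(3)mbt OSCs (log2FC = 0.82, SE 0.20, adjusted p = 0.00319). *asRNA:CR46135* (chromosome 3R, 5613280 to 5616308, minus strand) spans *Atu*, which encodes a subunit of the Paf1 transcription elongation complex. It had 44.3, 25.9 and 32.1 against 13.3, 16.6 and 14.0 in OSCs (log2FC = 1.14, SE 0.27, adjusted p = 0.00493) and 60.8, 49.4 and 61.5 against 32.0, 35.3 and 26.5 in Δl(3)mbt OSCs (log2FC = 0.86, SE 0.20, adjusted p = 0.00323). *CR46089* had 82.2, 75.2 and 98.5 against 49.4, 40.4 and 48.6 in OSCs (log2FC = 0.87, SE 0.17, adjusted p = 9.97e-04) and 136, 109 and 109 against 76.9, 71.6 and 68.2 in Δl(3)mbt OSCs (log2FC = 0.69, SE 0.14, adjusted p = 8.75e-04). In all 5 genes and both lines, every ovo-FLAG library lay above every empty-vector library. Naming by a large rise had required this of *CR45481*, *CR45028* and *CR46135* in both lines and of *CR46089* in OSCs. Under quantile normalization the calls of *CR45028* and *CR46135* were lost in both lines, and those of *CR43257* and *CR46089* in Δl(3)mbt OSCs. Quantile normalization without the shallowest library also lost *CR43257* in OSCs. DESeq2 and a pseudocount of 5 also lost *CR43257* in Δl(3)mbt OSCs, and *CR46089* was lost there without ovo-FLAG replicate 1 (log2FC = 0.59).

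Called in OSCs and not in Δl(3)mbt OSCs, *CR43481* had 23.7, 28.5 and 19.5 with ovo-FLAG against 10.2, 9.02 and 5.03 with empty vector (log2FC = 1.49, SE 0.34, adjusted p = 0.00341). Quantile normalization without the shallowest library lost this call. *CR44807* had 6.33, 5.19 and 10.3 against 1.57, 3.32 and 2.23 (log2FC = 1.28, SE 0.52, adjusted p = 0.0860), a call lost without any single library but ovo-FLAG replicate 2, with adjusted p of 0.108 to 0.255. The 1 gene lower, *asRNA:CR43470* (chromosome 3L, 7250640 to 7252598, plus strand), at the 3′ end of *CG14830*, had 47.4, 36.3 and 48.1 against 65.1, 70.3 and 66.5 (log2FC = -0.61, SE 0.18, adjusted p = 0.0180), and its call was lost without ovo-FLAG replicate 2 (log2FC = -0.48) or empty-vector replicate 2 (log2FC = -0.58). In Δl(3)mbt OSCs *CR43470* had a log2FC of -0.59 that missed the limit, and the difference between the lines was 0.03 (SE 0.25, adjusted p = 0.969). The count higher was 7 without OSC ovo-FLAG replicate 1 and 6 without empty-vector replicate 1 or 3. The count lower was 2 without ovo-FLAG replicate 3.

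Called in Δl(3)mbt OSCs and not in OSCs, *CR43426* had 10.5, 22.7 and 16.6 with ovo-FLAG against 5.96, 9.09 and 0 with empty vector (log2FC = 2.03, SE 0.72, adjusted p = 0.0502). *CR44035* had 2.80, 2.06 and 10.3 against 0, 1.82 and 0 (log2FC = 1.85, SE 0.79, adjusted p = 0.0839). *asRNA:CR43866* (chromosome 2L, 6004167 to 6006333, plus strand), inside the beta-galactosidase gene *Gal*, had 46.1, 36.0 and 33.9 against 23.3, 24.4 and 18.9 (log2FC = 0.77, SE 0.24, adjusted p = 0.0199). *asRNA:CR44053* (chromosome X, 16806047 to 16809230, minus strand), which spans the water taste channel gene *ppk28*, had 44.0, 31.9 and 39.4 against 18.4, 19.3 and 37.9 (log2FC = 0.66, SE 0.28, adjusted p = 0.0813), and the groups overlapped. *CR45798* (chromosome 3R, 21266255 to 21267794, plus strand), inside *Rab1*, a GTPase gene of transport from the endoplasmic reticulum, had 15.4, 23.7 and 21.3 against 2.17, 8.73 and 3.79. *asRNA:CR44155* (chromosome 3R, 4646433 to 4648242, minus strand), inside the sodium channel gene *rpk*, had 28.7, 21.6 and 15.8 against 10.3, 7.64 and 7.57. The last 2 reached the level in this ovo-FLAG group alone and carry no p. In OSCs *CR43866* had a log2FC of 0.81 and *CR44053* of 0.46, and their differences between the lines of -0.03 (SE 0.49, adjusted p = 0.980) and 0.20 (SE 0.51, adjusted p = 0.864) did not pass. The call of *CR43426* was lost without ovo-FLAG replicate 2 or 3 (adjusted p = 0.156 and 0.112) and that of *CR43866* without ovo-FLAG replicate 1 (0.118). That of *CR44035* was lost without ovo-FLAG replicate 1 or 2 or empty-vector replicate 1 (0.105 to 0.176), and that of *CR44053* without ovo-FLAG replicate 1 or 3 or empty-vector replicate 1 or 2 (0.190 to 0.261). Quantile normalization also lost the calls of *CR43866*, *CR44035* and *CR44053*. The count higher was 9 without ovo-FLAG replicate 1 and 8 without replicate 3.

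Of the 3 genes lower, *CR45281* had 65.7, 66.9 and 59.9 normalized counts with ovo-FLAG against 94.8, 97.4 and 136 with empty vector (log2FC = -0.74, SE 0.16, adjusted p = 0.00134), a call lost without the shallow empty-vector replicate 3 (log2FC = -0.58). *asRNA:CR43964* (chromosome 2R, 18775411 to 18777166, plus strand), which spans *CG15093*, had 20.3, 25.7 and 26.0 against 34.7, 45.4 and 41.6 (log2FC = -0.73, SE 0.23, adjusted p = 0.0217), a call lost without empty-vector replicate 2 (adjusted p = 0.104), and *CG15093* fell beside it (log2FC = -0.77, SE 0.08, adjusted p = 7.93e-07). *asRNA:CR44390*, the third, had a log2FC of -0.78. The count lower was 5 or 6 without ovo-FLAG replicate 2 or 3 or empty-vector replicate 1 or 2.

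**Figure D3:**
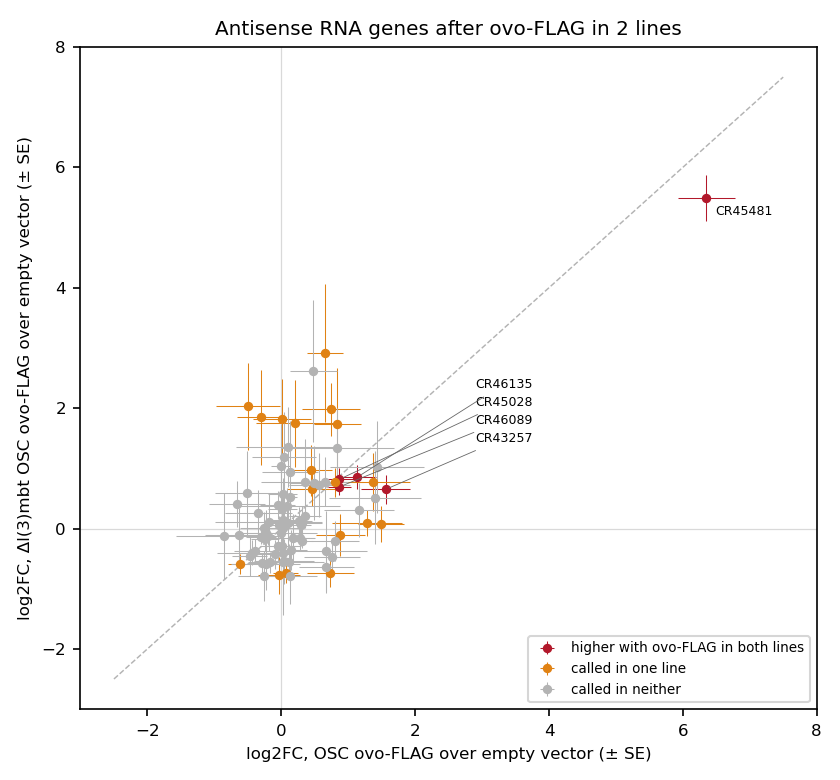
Log2FC of ovo-FLAG over empty vector (± SE) in OSCs (x axis) and Δl(3)mbt OSCs (y axis) for each antisense RNA gene tested in both. Red points are the 5 genes higher in both lines, orange points were called in one line, grey points in neither, and the dashed line marks equal change; *asRNA:CR45481* lies far from the rest at 6.35 and 5.49.

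The change with ovo-FLAG differed between the lines for 5 antisense genes by the test of the difference itself (Δl(3)mbt OSCs minus OSCs, log2 difference beyond 0.6, adjusted p under 0.1), 5.26% of 95 tested, against 4.42% of all genes, 1.51% higher and 2.91% lower. It was lower in Δl(3)mbt OSCs by this measure for *CR43964* at -1.47 (SE 0.45, adjusted p = 0.0388), *CR43481* at -1.42 (SE 0.47, adjusted p = 0.0628) and *CR45281* at -0.81 (SE 0.25, adjusted p = 0.0380). It was higher for *CR43426* at 2.52 (SE 0.87, adjusted p = 0.0773) and *CR44035* at 2.14 (SE 0.78, adjusted p = 0.0963). *CR43964* showed both signs, with 26.9, 33.7 and 14.9 normalized counts with ovo-FLAG against 9.41, 22.3 and 12.9 with empty vector in OSCs, where the test did not pass (adjusted p = 0.151). The 2 genes higher by this measure depended on single libraries. Their count was 0 without any 1 of the 3 empty-vector libraries of OSCs, without Δl(3)mbt ovo-FLAG replicate 3 or without Δl(3)mbt empty-vector replicate 3, it was 5 without Δl(3)mbt empty-vector replicate 2, and it was 1 without any of the other 6.

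Several genes were called in both the line comparison and an ovo-FLAG comparison, which share no libraries. Of the 24 genes higher in untreated Δl(3)mbt OSCs, 6 were also higher with ovo-FLAG in OSCs (25% of the 24 and 54.5% of the 11): *CR43257*, *CR43481*, *CR44807*, *CR45028*, *CR46135* and *asRNA:CR45171*. *CR45481*, the gene with the largest change with ovo-FLAG, was not among them and was too low to be tested between the untreated lines. Of the 12 lower in untreated Δl(3)mbt OSCs, 1 was higher with ovo-FLAG in OSCs, *CR46089*. With ovo-FLAG in Δl(3)mbt OSCs, 4 of the 24 were higher and 2, *CR43964* and *CR45281*, were lower. Of the 12, 2 were higher there, *CR44035* and *CR46089*. The call of *CR43964* in untreated Δl(3)mbt OSCs was lost with edgeR and with quantile normalization. It was also lost without any single Δl(3)mbt library or OSC replicate 2 or 4 (adjusted p of 0.0514 to 0.118 by limma). Of the 9 higher in vas-GFP+ cells, *CR45481* and *CR43481* were also higher with ovo-FLAG in OSCs. Of the 9, *CR43481* and *CR43864* were higher in Δl(3)mbt OSCs, and *CR43864*, *CR43916* and *CR44894* were higher in fGS/OSS. Over the 5 comparisons, 33 antisense genes were called in none, 42 in 1, 25 in 2, 8 in 3 and 3 in 4. No test of these overlaps was made. The matching overlaps over all genes are not given here, so the percentages do not set the antisense genes apart from other genes.

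The sense partners were not used to choose the genes. In the sorted comparison the partner of the 13 called antisense genes was called in the same direction for 2, in the opposite direction for 1, not called for 7 and too low to test for 3. In fGS/OSS these numbers were 9, 10, 18 and 13 of 50, and in Δl(3)mbt OSCs 2, 4, 22 and 8 of 36. With ovo-FLAG they were 0, 0, 11 and 1 of 12 in OSCs and 1, 1, 11 and 4 of 17 in Δl(3)mbt OSCs. Among the partners tested, called or not beside a called antisense gene, 25.5% were called in the sorted cells, 45.3% in fGS/OSS, 15.4% in Δl(3)mbt OSCs, 7.78% with ovo-FLAG in OSCs and 14.4% in Δl(3)mbt OSCs. Same and opposite directions were therefore both seen, and no called antisense gene in OSCs with ovo-FLAG had a called partner.

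Neighbours on the same strand, within 1000 bases or over the span, also moved with some of the genes. *Gr94a*, a gustatory receptor gene that ends 13 bases upstream of *CR46089*, was lower in Δl(3)mbt OSCs (log2FC = -0.68, adjusted p = 0.0232) and in fGS/OSS (-0.89, adjusted p = 0.00402) and higher with ovo-FLAG in OSCs (0.89, adjusted p = 0.0175), each time in the direction of *CR46089*. *Spec2*, 336 bases upstream of *CR46135*, was higher in Δl(3)mbt OSCs (0.69, adjusted p = 1.52e-04), and with ovo-FLAG its log2FC of 0.55 in OSCs and 0.42 in Δl(3)mbt OSCs missed the limit. *CG6912*, which shares span with *CR45600*, was lower in fGS/OSS (-1.84, adjusted p = 8.28e-04) and Δl(3)mbt OSCs (-0.90, adjusted p = 0.0447). *CG15309*, over the span of *CR44894*, was higher in fGS/OSS (0.67, adjusted p = 0.00113), and *cv-c*, over that of *CR44176*, was lower in vas-GFP+ cells (-2.34, adjusted p = 7.23e-05). *CG33494*, 219 bases upstream of *asRNA:CR44179*, was higher with ovo-FLAG in OSCs (2.32, adjusted p = 0.00290), and *CG14695*, 421 bases upstream of *CR45195*, was higher in fGS/OSS (0.91, adjusted p = 0.0453). The same neighbours also moved without the antisense gene. With ovo-FLAG in Δl(3)mbt OSCs *CG33494* (1.29) and *CG6912* (0.73) were called higher, beside -0.11 for *CR44179* and 0.06 for *CR45600*. *CG15309* was higher in Δl(3)mbt OSCs (0.78) and with ovo-FLAG in OSCs (1.19) and Δl(3)mbt OSCs (1.03), where *CR44894* was not called. How often neighbours moved with or without their gene was not counted. These neighbours were named after their values were seen, and the part of reads shared with or running on from them was not tested.

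Pairs that moved together included *CR44062* and *bond*. *bond* averaged 14.1 ± 8.52 normalized counts in fGS/OSS and 18.7 ± 8.97 in Δl(3)mbt OSCs, against 842 ± 79.7 in OSCs, so its log2FC of -5.95 and -5.55 stood beside -5.73 and -5.22 for the antisense gene. *CR44020* and *osk* moved together in the sorted cells, where *osk* averaged 2850.3 ± 631 in vas-GFP+ cells and 59.1 ± 5.19 in vas-GFP- cells (log2FC = 5.55, SE 0.18, adjusted p = 1.08e-06). With ovo-FLAG, *osk* had a mean of 39.6 normalized counts in OSCs against 1.58 with empty vector, while *CR44020* had no read in either group. Pairs that moved apart included *CR44984* and *ed* in the sorted cells. *ed* averaged 1669 ± 310.4 in vas-GFP+ cells and 7979 ± 229 in vas-GFP- cells (log2FC = -2.27, SE 0.12, adjusted p = 9.26e-06). *CR45195* and *Sodh-2* moved apart in fGS/OSS, where the antisense gene had 380.1, 377, 317 and 382 normalized counts against 299, 138, 166 and 231 in OSCs (log2FC = 0.86, SE 0.20, adjusted p = 0.00368) and *Sodh-2* 135 ± 31.0 against 313 ± 33.6 (log2FC = -1.23, SE 0.16, adjusted p = 2.82e-05). *CR45518* and *CG12730* did so as well, with *CG12730* at 387 ± 7.94 in fGS/OSS against 195 ± 17.4 in OSCs (log2FC = 0.99, SE 0.09, adjusted p = 1.43e-06). *CR44996* was lower in fGS/OSS but higher in Δl(3)mbt OSCs, at 90.1, 92.6, 63.6 and 79.4 against 55.3, 48.3, 34.8 and 51.8 (log2FC = 0.77, SE 0.21, adjusted p = 0.0108), and there *CG7227* was higher too (log2FC = 3.86, SE 0.53, adjusted p = 1.38e-04).

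**Figure D4:**
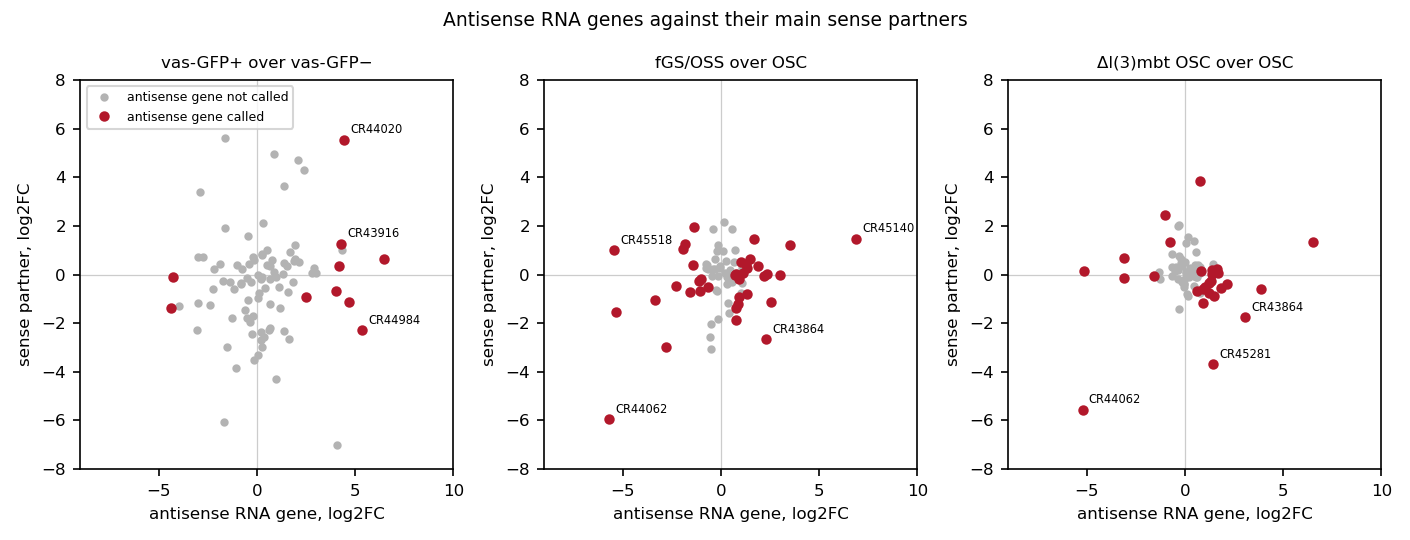
Log2FC of each antisense RNA gene (x axis) and of its sense partner (y axis) in the 3 comparisons of total RNA; red points are antisense genes that passed the test. Over the 3 panels called points lie in all 4 quadrants, with *asRNA:CR44062* and *bond* together at the lower left in the fGS/OSS and Δl(3)mbt panels.

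A strand-specific library still assigns a few reads to the wrong strand, so counts of an antisense gene over an abundant sense RNA can hold sense reads. The share was taken from 20 antisense genes that overlap highly expressed sense genes, as the median antisense count per 100 sense counts in the shared exons. Exonic counts were taken as spread evenly. This median was 0 to 0.138 per library in total RNA. In poly(A) RNA it was 1.26 to 1.54 in OSCs with ovo-FLAG against 0.55 to 1.33 with empty vector, and 0.78 to 1.31 in Δl(3)mbt OSCs with ovo-FLAG against 0 to 0.55 with empty vector. The groups overlapped in OSCs, where empty-vector replicate 2 stood above ovo-FLAG replicate 3, and did not overlap in Δl(3)mbt OSCs, and no test of the share was made. With the counts of the 20 pairs pooled, the share was larger, at 0.126 to 0.577 in total RNA and 0.440 to 1.82 in poly(A) RNA. The pooled share in vas-GFP+ cells was 0.375 to 0.577, where the median was 0. The share holds true antisense RNA as well as misassigned reads. Of the 20 pairs, 6 belong to the 111 genes, among them *CR45798*, *asRNA:CR45926* and *CR46135*, so subtracting the share can take off their own signal.

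With each library's share of the sense counts taken off, an alternative chosen after seeing the data, 7 genes were higher and 1 lower in OSCs and 14 higher and 4 lower in Δl(3)mbt OSCs. Lost in OSCs were *asRNA:CR45999*, *asRNA:CR44179*, *CR45926* and *CR44807*, and in Δl(3)mbt OSCs *CR45798* and *asRNA:CR44095*. Gained in Δl(3)mbt OSCs were *asRNA:CR45874* and *CR45926*, higher with ovo-FLAG, and *CR43425*, lower, so *CR45926* was lost in one line and gained in the other. *CR45798* stood at 1.85 counts per 100 *Rab1* counts in Δl(3)mbt OSCs with ovo-FLAG, against library shares of 0.78 to 1.31. *CR45481* kept its log2FC at 6.35 and 5.49, since its partner is nearly silent. In total RNA the subtraction left the counts at 9 and 4 in sorted cells, 27 and 22 in fGS/OSS and 24 and 12 in Δl(3)mbt OSCs. The median share taken off was 0 in the vas-GFP+ libraries, so their values could not change.

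**Figure D5:**
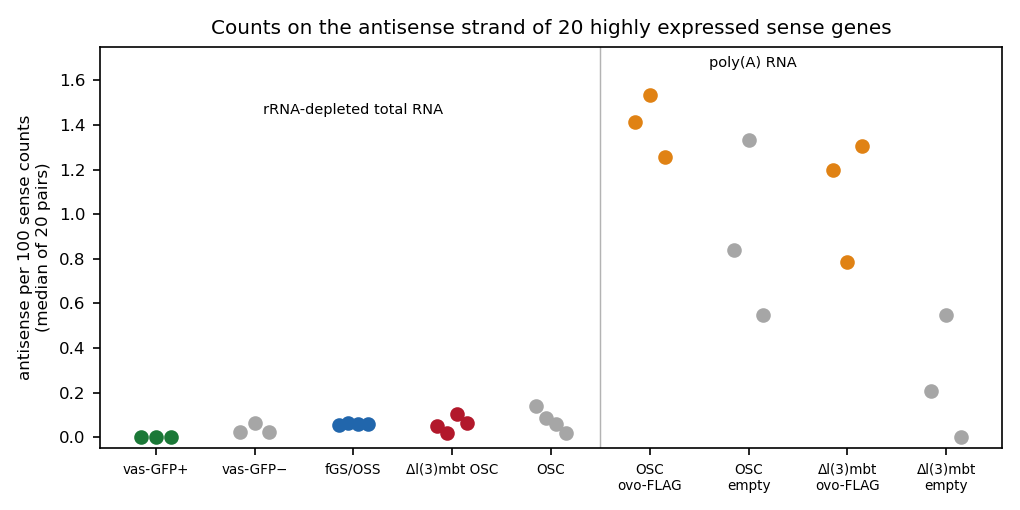
Antisense counts per 100 sense counts (y axis, median of 20 pairs) in each library of the 9 conditions (x axis). Total RNA libraries lie at 0.138 or less, ovo-FLAG libraries at 0.78 to 1.54 and empty-vector libraries at 0 to 1.33.

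Genes that act on double-stranded RNA or degrade noncoding RNA were followed beside the antisense genes. Of 9 genes of the first kind, which include the small interfering RNA pathway, *Dcr-2*, the nuclease that makes small interfering RNAs, was lower in vas-GFP+ cells, at 1034 ± 104 normalized counts against 4304 ± 121 in vas-GFP- cells (log2FC = -2.06, SE 0.09, adjusted p = 3.20e-06), and no other member was called. In fGS/OSS 3 of 9 were higher, near the 36.3% of all genes called there, namely *AGO2*, the effector of small interfering RNAs (log2FC = 1.08), the RNA helicase gene *mle* (0.72) and *blanks*, which encodes a double-stranded RNA binding protein. None of 8 tested was called in Δl(3)mbt OSCs by limma or DESeq2, with 2 and 3 at an unadjusted p under 0.05, and edgeR called 1 lower. With ovo-FLAG, *blanks* was higher in OSCs (log2FC = 1.50, not called by DESeq2) and *Hen1*, the small RNA methyltransferase gene, in Δl(3)mbt OSCs (1.10). The calls of *blanks* rested on few reads. It had 11 reads with ovo-FLAG against 8 with empty vector in OSCs, means of 6.04 and 1.43 normalized counts, and 23 reads in fGS/OSS against 0 in untreated OSCs. Of 10 nuclear exosome genes, *Rrp4* was higher (0.68) and *Rrp40* (-0.68) and *Ski6* (-0.77) were lower in fGS/OSS, and limma and DESeq2 called none in the other 4 comparisons, where 1 to 5 and 0 to 6 had an unadjusted p under 0.05, while edgeR called 1 lower in Δl(3)mbt OSCs. The median log2FC of the exosome list was -0.39 in the sorted cells, -0.18 in fGS/OSS, -0.21 in Δl(3)mbt OSCs, 0.06 with ovo-FLAG in OSCs and 0.12 in Δl(3)mbt OSCs.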

How the data were processed

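RNA was sequenced as strand-specific libraries, from rRNA-depleted total RNA for sorted cells and untreated lines and from poly(A) RNA for nucleofected cells. The authors removed adapters (cutadapt 1.18), mapped reads by STAR 2.7.3a and used featureCounts (Subread 1.5.3), set to the reverse strand, for counting per gene of Ensembl BDGP6.28 release 100. The deposited values are signal in the form of normalized counts, each table's counts divided by DESeq2 1.30.1 size factors, so levels set across tables were scaled separately. In every library 100% of values were whole multiples of 1 read (tolerance 0.001), which gave the totals per library. Further files deposited by the authors hold their own log2 fold changes and p-values and were not used, and 0 columns of sample values were left out.

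Groups were taken from the sample labels. Each comparison was fitted within its table with limma 3.58.1 (R 4.3.3, empirical Bayes with trend and robust options) on log2(normalized count + 1) where the mean was 2 or more, with Benjamini-Hochberg adjustment over all genes tested, so a fold change of a low gene is understated. The ovo-FLAG effects were compared in 1 fit over both poly(A) tables. The deposited values are not whole counts, so edgeR 4.0.16 and DESeq2 1.42.0 were run as alternatives on the recovered reads. Other alternatives were quantile normalization, filters of 0 and 10, pseudocounts of 0.5 and 5, a replicate block, each library left out in turn and, added after seeing the data, subtraction of reads on the other strand and quantile normalization without the shallowest library. Bounds set the mean normalized count against 3 reads over a group, ratios set pooled reads over summed size factors, and 95% intervals cover counting error only, since reads without molecular identifiers are not independent molecules. A gene that reached 20 normalized counts in 1 condition alone is given without a p in contrasts with that condition.

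Positions and overlaps came from the Ensembl release 115 annotation (BDGP6.54), of the same assembly, which matched 17737 of 17807 genes and all 486 antisense RNA genes. Named genes were the 10 with the highest group mean, up to 6 with the largest rise and 6 with the largest fall per comparison among those called, without overlap and at 20 or more in the higher group, those called in 3 or more comparisons, and those beside the limit. The sense partner of 1 named gene is not reported here. The members and lists were chosen with earlier results of these data known. On simulated data the fit recovered 75.7% of 4-fold and 36.5% of 2-fold changes in the sorted comparison (10481 genes), and 92.7% of 2-fold changes in fGS/OSS (9533 genes), 91.1% in Δl(3)mbt OSCs (9592), and with ovo-FLAG 94.5% in OSCs (9025) and 98.1% in Δl(3)mbt OSCs (9290). The genes changed in the simulation averaged at least 20 normalized counts over the libraries compared. Recovery was judged by adjusted p and direction, without the fold limit of the calls. Recovery of genes with lower averages, or under the fold limit as well, was therefore not measured. Tables were joined in Python 3.11.15 (pandas 2.3.3) and drawn with matplotlib 3.10.9.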

Additional observations from a re-analysis of the deposited data

Results flagged for a closer look

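In the groups of 4 libraries, 54 sets of values of named antisense genes were screened for a library standing apart from the other 3, and 5 were found. Chance flags about 1 in 20 groups. In fGS/OSS, replicate 3 held 317 normalized counts of *asRNA:CR45195*, against 377 to 382 in the other libraries. In Δl(3)mbt OSCs, replicate 3 was the low one for *asRNA:CR44807*, at 57.4 against 72.3 to 74.9, and for *asRNA:CR43257*, at 14.1 against 31.2 to 34.4. In wild-type OSCs, replicate 3 was high for *asRNA:CR45028*, at 31.7 against 21.5 to 22.4, and replicate 1 was low for *asRNA:CR43470*, at 119 against 141 to 143. No library stood apart for more than 2 genes.

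The change with ovo-FLAG differed between Δl(3)mbt OSCs and OSCs for 5 antisense genes. As Δl(3)mbt OSCs minus OSCs, the log2 differences from limma were -0.81 for *asRNA:CR45281* (SE 0.25, adjusted p = 0.0380), -1.42 for *asRNA:CR43481* (SE 0.47, adjusted p = 0.0628), -1.47 for *asRNA:CR43964* (SE 0.45, adjusted p = 0.0388), 2.52 for *asRNA:CR43426* (SE 0.87, adjusted p = 0.0773) and 2.14 for *asRNA:CR44035* (SE 0.78, adjusted p = 0.0963).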

How the results depend on the processing

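Of 69 called values of named genes, 41 kept their call under every alternative run, 28 lost it under at least 1, and 0 changed direction. In fGS/OSS and in Δl(3)mbt OSCs against OSCs no alternative moved the counts called by more than 1.5 times, and an exonic criterion left all 111 genes with a sense partner. In the sorted cells DESeq2 gave 17 higher, and edgeR and a filter at a mean of 10 each gave 2 lower. The median log2FC of all genes was 0.04 with edgeR, 0.08 with DESeq2 and -0.26 without a filter, against -0.07. With ovo-FLAG in OSCs, quantile normalization gave 4 higher and 7 lower, the same without the shallowest library 3 and 9, no filter 6 higher and subtraction of the other strand 7 higher. The count lower there was 0 with edgeR, with DESeq2 and with a pseudocount of 5, where 17 genes by edgeR, 13 by DESeq2 and 16 by limma with a pseudocount of 1 had an unadjusted p under 0.05 in either direction. For Δl(3)mbt OSCs quantile normalization gave 5 higher and 22 lower, the same without the shallowest library 6 and 14, and edgeR 6 lower. For the difference between the lines, edgeR gave 1 higher and 7 lower, DESeq2 1 and 1 and quantile normalization 1 and 1, a pseudocount of 0.5 or 5 gave 1 higher, and no filter or a mean of 10 gave 0 higher in limma, where 15 genes had an unadjusted p under 0.05 with the filter at 2. The cause of these shifts was not tested.

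With each library left out in turn, the counts higher and lower ranged from 2 to 12 and 1 to 8 in the sorted cells, 21 to 30 and 19 to 25 in fGS/OSS, 18 to 26 and 10 to 11 in Δl(3)mbt OSCs, 6 to 16 and 0 to 2 with ovo-FLAG in OSCs, 8 to 17 and 2 to 6 with ovo-FLAG in Δl(3)mbt OSCs, and 0 to 5 and 2 to 4 for the difference between the lines.

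The groups share replicate numbers, but libraries of the same number deviated together with r of only -0.05 to 0.14, so the numbers were not taken as pairs. With the replicate block the counts higher and lower were 4 and 2 in the sorted cells, 23 and 23 in fGS/OSS, 23 and 12 in Δl(3)mbt OSCs, 15 and 1 and then 16 and 4 with ovo-FLAG in OSCs and Δl(3)mbt OSCs, and 2 and 3 for the difference. With ovo-FLAG in OSCs each library correlated best with its own number, a hint from the data and not from the design.

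Depth limits the low genes most. The limit of 3 reads over a group, which set the bounds where a group had no read, is 0.58 to 1.59 normalized counts. An antisense gene under that level rested on few reads or none.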

Other observations

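The 375 antisense RNA genes below the level were also tested where their means allowed. In the sorted cells 1 of 120 was called, lower in vas-GFP+ cells, against 15% of all genes. In fGS/OSS 11 of 71 were higher and 10 lower, where 36.3% of all genes were called, and in Δl(3)mbt OSCs 3 of 75 were higher and 2 lower, where 19.2% were. With ovo-FLAG 5 of 99 were higher in OSCs and 14 of 90 in Δl(3)mbt OSCs, against 8.78% and 9.43% of all genes. Low counts make such genes harder to call, so these numbers are not comparable with those of the 111 genes.

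By arrangement, the 42 antisense genes inside their sense gene gave 34 calls over the 5 comparisons, the 19 that span it 33, the 21 that overlap at the 3′ ends 31 and the 29 that overlap at the 5′ ends 30. The spanning genes were the longest, with a median of 2199 exonic bases, and held 8 of the 24 genes higher in Δl(3)mbt OSCs. Among these calls the partner moved the same way in 6 and the opposite way in 3 of the 5′ overlaps, and the same way in 2 and the opposite way in 6 where the antisense gene lay inside. The comparisons that share OSC controls count such genes more than once, and no test was made.

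Total RNA and poly(A) RNA were compared within each line, between libraries that also differ in nucleofection. Over 53 antisense genes in OSCs the median log2 ratio of the poly(A) level of empty-vector cells to the total RNA level of untreated cells was 0.03, against -0.08 over 7494 genes. The ratio was 0.33 in Δl(3)mbt OSCs over 56 antisense genes, against 0.00 over 7600 genes. *asRNA:CR45807* was more than 8-fold higher in total RNA of OSCs, and *asRNA:CR45926* and *asRNA:CR31144* were more than 8-fold higher in poly(A) RNA. These last genes lie over the abundant *Nap1* and *RpL3*. The median antisense share of highly expressed pairs was 0.55 to 1.33 per 100 sense counts in the poly(A) libraries of OSCs with empty vector, against 0.018 to 0.138 in total RNA of OSCs. *CR31144* stood at or below the highest library share in all 9 groups and *CR45926* in OSC total RNA and in vas-GFP- cells, and the part of reads from the other strand in these ratios was not tested.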
